A study of Saccharomyces cerevisiae with 6 samples.

Results

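The mitochondrial protein import machinery is the set of translocases, chaperones and peptidases that brings proteins made in the cytosol into mitochondria. Its 32 listed genes were taken by name from the nuclear mRNA features of both deposited tables, and 31 of them had a feature. TOM5 was not analysed here. A second feature named MIA40, on another chromosome and without a read in any library, was left out. These 31 genes stand against 5603 nuclear mRNA features in all. Each was assigned to 1 of 9 complexes or pathways, and the rule that lists them uses their function. The list, like the lists it is compared with, was drawn up with earlier results of these data known.

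RNA came from mitochondria isolated from the budding yeast Saccharomyces cerevisiae. The strain was CEN.PK113-7D, a prototrophic haploid used in the laboratory, with 3 cultures in the ethanol group and 3 in the glucose group. The ethanol cultures grew on synthetic medium with ethanol and glycerol and the glucose cultures on synthetic medium with glucose, all in shake flasks until mid-exponential phase. The labels name no genetic change or added agent in either group. The RNA was given poly(A) tails with an enzyme and read directly on a Nanopore instrument, and the study asked how the mitochondrial transcriptome differs between the carbon sources.

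As background, nearly all mitochondrial proteins are encoded in the nucleus and enter through the TOM complex of the outer membrane. From there, proteins with a cleavable presequence pass to the TIM23 complex and are pulled into the matrix by an Hsp70 motor, where a processing peptidase removes the presequence. Carrier proteins travel with small TIM chaperones to the TIM22 complex, cysteine-rich proteins of the intermembrane space are trapped by MIA40 and ERV1, and barrel-shaped outer membrane proteins are inserted by the SAM complex. OXA1 inserts proteins into the inner membrane from the matrix side. Many mRNAs for mitochondrial proteins are translated near the organelle in yeast, so such mRNAs can be recovered with isolated mitochondria.

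Levels are given as reads per 1000000 nuclear mRNA reads with ENO2 left out of the total, written nRPM, and library values always follow the order of replicates 1, 2 and 3. ENO2, an enolase gene, took between 2.63% and 49.9% of the deposited CPM (reads per 1000000 assigned reads) of a library. A yeast ENO2 transcript is also the control RNA supplied with Nanopore direct RNA kits; whether it was added here was not tested. The reads left for nuclear mRNA without ENO2 numbered 8282, 19084 and 63053 in ethanol replicates 1, 2 and 3, and between 97398 and 121037 in the glucose libraries. A single read was thus worth 120.8, 52.4 and 15.9 nRPM in the ethanol libraries and at most 10.3 in a glucose library. A member without reads could hold up to 3 reads, or 362, 157 and 47.6 nRPM in ethanol replicates 1 to 3. Ethanol replicate 1 stands apart by its few nuclear mRNA reads, which were 0.977% of its assigned reads, against 7.13% to 13.0% in the other libraries. Its assigned reads were not few, at 847610, against 267509 and 671648 in ethanol replicates 2 and 3. In ethanol replicate 1, 10 of the 31 members had no read, against 5 in ethanol replicate 2 and none in the other 4 libraries. Ethanol replicate 3 stands apart in profile. Across nuclear features its chi-square per degree of freedom was 3.03 and 4.93 against ethanol replicates 1 and 2, where that pair had 1.18. Its Pearson correlation with them was 0.651 and 0.664, where that pair had 0.775. With the glucose libraries its correlation was 0.455 to 0.490, against 0.182 to 0.275 for the other ethanol libraries. Neither measure was adjusted for the unlike numbers of nuclear reads, and how far these moved the values was not tested. The labels fit known marker genes: JEN1, a lactate transporter repressed by glucose, had between 2620 and 2696 nRPM in the ethanol libraries and at most 8.26 in a glucose library. HXT3, a hexose transporter, had between 4651 and 5440 nRPM in glucose and at most 210 in ethanol. Cytosolic ribosomal protein genes, summed over 122 features, had between 72337 and 83271 nRPM in ethanol and between 129304 and 142895 in glucose. Features of the mitochondrial genome took between 3.15% and 12.6% of the deposited CPM, and cytosolic rRNA between 37.3% and 81.5%. The 5 endoplasmic reticulum genes KAR2, PDI1, SEC61, SSS1 and LHS1 together had 2415 to 2934 nRPM in ethanol and 3078 to 3879 in glucose. How much of the nuclear mRNA was attached to mitochondria was not tested.

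All import machinery mRNA together had levels that overlapped between the carbon sources. It had 4851, 3668 and 7795 nRPM on ethanol, against 5379, 4648 and 4697 on glucose. These shares rested on 40, 70 and 492 reads in ethanol and on 651, 453 and 504 reads in glucose. Ethanol replicate 3 was the highest of the 6 libraries and ethanol replicate 2 the lowest, so the groups overlapped. The means were 5438 ± 2125 nRPM in ethanol and 4908 ± 409 in glucose (SD, n = 3, two-sided exact permutation test, p = 0.8). The ethanol mean was 1.11 times the glucose mean, and without ethanol replicate 3 it was 0.868 times the glucose mean. With ENO2 kept in the total, where ENO2 took up to 49.9% of a library, the ratio was 0.340. With 3 libraries against 3 the smallest p of this test is 0.1. Since whole-cell RNA was not measured, fewer cells holding an mRNA, less of it per cell and less of it on the isolated mitochondria cannot be told apart.

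The small TIM chaperones TIM8, TIM9, TIM10 and TIM13, which escort hydrophobic precursors across the intermembrane space, were higher in each ethanol library. Together they had 725, 891 and 1253 nRPM on ethanol, against 545, 441 and 252 on glucose, and no glucose library reached the lowest ethanol library. The means were 956 ± 270 and 413 ± 149 nRPM (SD, n = 3), a ratio of 2.32, and leaving out any 1 library gave ratios between 1.94 and 2.76. The exact permutation p was 0.1, or 0.225 after adjustment over the 9 pools. The 95% Wilson intervals, which cover counting error only, ran from 332 to 1580 in ethanol replicate 1, on 6 reads, and from 1006 to 1561 in ethanol replicate 3. In glucose the highest upper bound was 694, so that ethanol replicate 3 alone lay beyond counting error above every glucose library.

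Both partner pairs of small TIMs contributed. TIM9 and TIM10, which form the essential chaperone for carrier proteins, summed to 362, 524 and 904 nRPM on ethanol, against 314, 267 and 177 on glucose. TIM8 and TIM13, whose complex helps import the TIM23 precursor, summed to 362, 367 and 349 on ethanol, against 231, 175 and 74.6 on glucose. The groups did not overlap for either pair. TIM10 (chromosome 8, 106506 to 106787, minus strand) was the most abundant single member of the pool, with 242, 314 and 666 nRPM on ethanol, against 223, 144 and 93.3 on glucose. Its ethanol libraries lay above its glucose libraries, although ethanol replicate 1 rested on 2 reads. TIM9 (chromosome 5, 118124 to 118387, plus strand) had 120.8, 209.6 and 238 nRPM on ethanol, against 90.9, 123 and 83.9 on glucose. TIM8 (chromosome 10, 671937 to 672200, plus strand) had 120.8, 262 and 174 nRPM on ethanol, against 157, 92.4 and 37.3 on glucose, and for both genes ethanol replicate 1 lay within the glucose range.

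**Figure D1:**
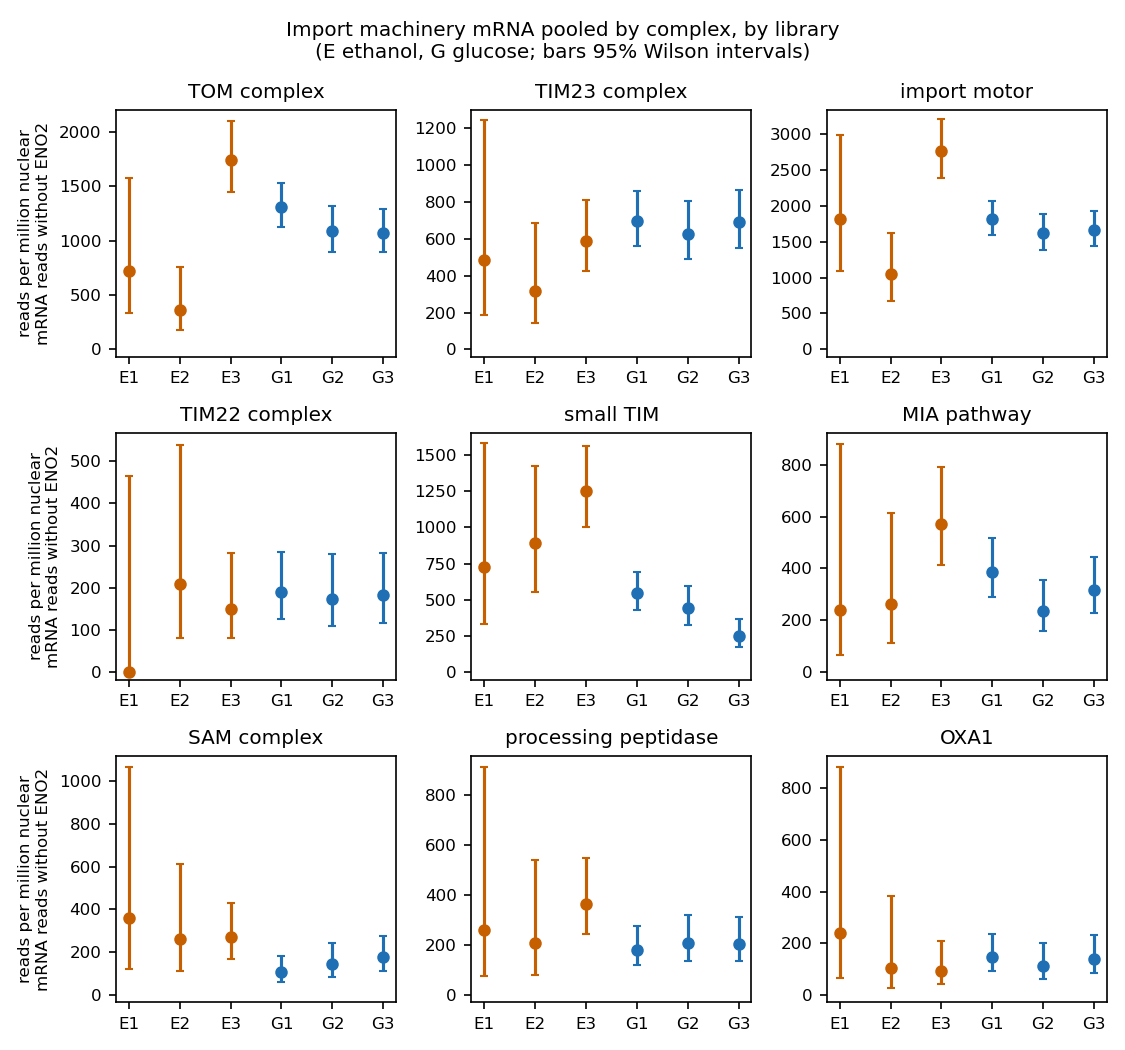
Pooled level of each complex in nRPM (vertical axis) in ethanol replicates 1 to 3 (E1 to E3) and glucose replicates 1 to 3 (G1 to G3), with 95% Wilson intervals for counting error. The small TIM and SAM pools lie higher and the TIM23 pool lower in every ethanol library than in any glucose library, and the intervals of ethanol replicate 1 are wide.

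Feature length moved with this result. The small TIM genes are short, at 264 to 318 bases, and short features in general had higher levels in ethanol. Of all features tested, the 103 of at most 400 bases had a median log2 fold change of 1.00, and the 1100 of at least 1000 bases had a median of -0.42. Measured against the 82 nuclear features of the same length range in place of all nuclear mRNA, a total added after seeing the data, the small TIM ratio was 0.734 in place of 2.32 and the groups no longer separated (exact permutation p = 0.3). Relative to mRNAs of their own length, the mean small TIM level was thus lower on ethanol, with overlapping groups.

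The SAM complex, which inserts and assembles barrel proteins of the outer membrane, was also higher in each ethanol library. SAM35, SAM37 and SAM50 together had 362, 262 and 269.6 nRPM on ethanol, against 107, 144 and 177 on glucose. The means were 298 ± 55.8 and 143 ± 34.9 nRPM (SD, n = 3, exact permutation p = 0.1, 0.225 adjusted over the 9 pools). The ratio of 2.09 ranged from 1.86 to 2.37 with any 1 library left out. It was 2.36 against nuclear features of the same length range. Only 3, 5 and 17 reads lay behind the ethanol values and 13, 14 and 19 behind the glucose values, and the Wilson intervals of all ethanol libraries reached into the glucose range. None of the 3 genes had a mean of 10 CPM, so none is described singly.

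MAS1 and MAS2 encode the subunits of the matrix processing peptidase, which cuts off presequences. Their sum was 262, 209.6 and 365 nRPM on ethanol, against 182, 208 and 206 on glucose, without overlap but with ethanol replicate 2 next to the highest glucose library. The ratio of means was 1.40 (two-sided exact permutation p = 0.1, 0.225 adjusted over the 9 pools), and it was 1.78 against nuclear features of the same length range. That range ran only from 1389 to 1449 bases, which limits this comparison. MAS1 (chromosome 12, 451775 to 453163, minus strand), the catalytic subunit, had 262, 157 and 254 nRPM on ethanol, against 66.8, 94.97 and 103 on glucose. All its ethanol libraries lay above its glucose libraries. With ENO2 kept in the total, the small TIM, SAM and peptidase ratios turned to 0.695, 0.553 and 0.415, while the median log2 fold change of all features moved from -0.19 to -0.90. On deposited CPM the ratios were 1.38, 1.06 and 0.818 (exact permutation p = 0.7, 0.9 and 0.7). The MAS1 reads were partly fractional, 2.17 in ethanol replicate 1 and 8.08 in glucose replicate 1, as happens when a read is split between features or places.

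The TIM23 complex, the inner membrane gate for presequence proteins, was the 1 pool that was lower in every ethanol library. TIM17, TIM21, TIM23 and TIM50 together had 483, 314 and 587 nRPM on ethanol, against 694, 626 and 690 on glucose. The means were 461 ± 137 and 670.1 ± 38.0 nRPM (SD, n = 3), a ratio of 0.689 that ranged from 0.595 to 0.798 with any 1 library left out (exact permutation p = 0.1, 0.225 adjusted over the 9 pools). Only 4, 6 and 37 reads lay behind the ethanol values, against 84, 61 and 74 in glucose. The Wilson intervals of all ethanol libraries reached into the glucose range, with upper bounds of 1241, 686 and 809 nRPM. Against nuclear features of the same length range the ratio was 0.692, but the groups overlapped (exact permutation p = 0.2). On deposited CPM the ratio was 0.380, where the median log2 fold change of all features was -1.48.

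Within this complex TIM50 and TIM23 differed in their values. TIM50 (chromosome 16, 438084 to 439514, plus strand), the receptor that takes presequences from the TOM complex, had 0, 105 and 206 nRPM on ethanol, against 314, 267 and 289 on glucose. Every ethanol library had a measured level below every glucose library, on 0, 2 and 13 reads. The 0 in ethanol replicate 1 allows up to 362 nRPM, above all glucose values. TIM23 (chromosome 14, 652605 to 653273, plus strand), a channel subunit, had 362, 105 and 159 nRPM on ethanol, against 165, 175 and 177 on glucose. Its ethanol libraries lay on both sides of a narrow glucose range, on 3, 2 and 10 reads. TIM17, the other channel subunit, had a mean of 9.78 CPM and lay just under the 10 CPM minimum for single genes, while TOM22 with 10.2 CPM lay just above it.

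The TOM complex, the entry gate of the outer membrane, had 725, 367 and 1745 nRPM on ethanol, against 1310, 1088 and 1072 on glucose. Ethanol replicate 3 was the highest of all libraries and the other ethanol libraries were the lowest, so the means of 945 ± 715 and 1157 ± 133 overlapped widely (SD, n = 3, exact permutation p = 0.7). The ethanol to glucose ratio of 0.817 became 1.07 without ethanol replicate 2, 0.472 without ethanol replicate 3 and 0.523 on deposited CPM. On that last scale the median log2 fold change of all features was -1.48. The subunits of the TOM complex did not share 1 pattern.

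The receptors TOM20 and TOM70 had few reads on ethanol. TOM70 (chromosome 14, 388518 to 390371, minus strand), which receives carrier precursors and their cytosolic chaperones, had 120.8, 52.4 and 381 nRPM on ethanol, against 347, 369.6 and 466 on glucose. In 2 of the 3 ethanol libraries it rested on a single read, against 42, 36 and 50 reads in glucose, and ethanol replicate 3 lay within the glucose range. TOM20 (chromosome 7, 667557 to 668108, plus strand), the receptor for presequences, had 0, 52.4 and 174 nRPM on ethanol, against 248, 154 and 112 on glucose. Together both receptors had 120.8, 105 and 555 nRPM on ethanol, against 595, 524 and 578 on glucose.

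TOM40 (chromosome 13, 645894 to 647057, plus strand), the barrel that forms the pore, had 120.8, 0 and 444 nRPM on ethanol, against 297, 175 and 270.4 on glucose. TOM22 (chromosome 14, 368601 to 369059, plus strand), the central receptor that organises the complex, had 120.8, 105 and 206 nRPM on ethanol, against 132, 71.9 and 93.3 on glucose. TOM6 (chromosome 15, 413759 to 413944, plus strand), a small subunit that stabilises the complex, had 120.8, 105 and 349 nRPM on ethanol, against 169, 216 and 93.3 on glucose. The groups overlapped for all of these, and ethanol replicate 3 was the highest ethanol library for each. For each of them the difference between the group means was smaller than the SD of the ethanol libraries.

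The import motor was the largest pool and was dominated by SSC1. Its 6 members had 1811, 1048 and 2760 nRPM on ethanol, against 1813, 1617 and 1661 on glucose. Its means were 1873 ± 857 and 1697 ± 103 nRPM (SD, n = 3, exact permutation p = 0.8). SSC1 (chromosome 10, 509538 to 511505, minus strand), the matrix Hsp70 that pulls precursors inward, was the most abundant member on the nRPM scale. It had 845, 576 and 1871 nRPM on ethanol, against 1091, 1001 and 1128 on glucose. Ethanol replicate 3 lay above and the other ethanol libraries below the glucose range. MGE1 (chromosome 15, 768904 to 769590, plus strand), its nucleotide exchange factor, had 242, 105 and 365 nRPM on ethanol, against 223, 185 and 121 on glucose. PAM17 (chromosome 11, 571203 to 571796, minus strand), which helps assemble the motor, had 362, 105 and 174 nRPM on ethanol, against 140.5, 133 and 103 on glucose. TIM44 (chromosome 9, 299486 to 300781, plus strand), the scaffold that docks SSC1 at the channel, had 0, 209.6 and 174 nRPM on ethanol, against 211, 154 and 224 on glucose. For each of these genes the groups overlapped.

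The remaining pathways also overlapped. MIA40 (chromosome 11, 82335 to 83546, plus strand), the oxidoreductase that traps cysteine-rich proteins, had 120.8, 157 and 428 nRPM on ethanol, against 264, 164 and 279.8 on glucose. Its means were 235 ± 168 and 236 ± 62.7 nRPM (SD, n = 3). The pool of MIA40 and ERV1, the oxidase that recharges it, had a ratio of 1.14 (exact permutation p = 0.8), which became 0.802 without ethanol replicate 3. OXA1 (chromosome 5, 469276 to 470484, plus strand) had 242, 105 and 95.2 nRPM on ethanol, against 149, 113 and 139.9 on glucose, a ratio of 1.10 (exact permutation p = 1.0) that became 0.747 without ethanol replicate 1. The TIM22 complex, which inserts carriers into the inner membrane, had 0, 209.6 and 151 nRPM on ethanol, against 190.0, 175 and 182 on glucose (exact permutation p = 0.5). Its 0 in ethanol replicate 1 allows up to 362 nRPM, above all glucose values.

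**Figure D2:**
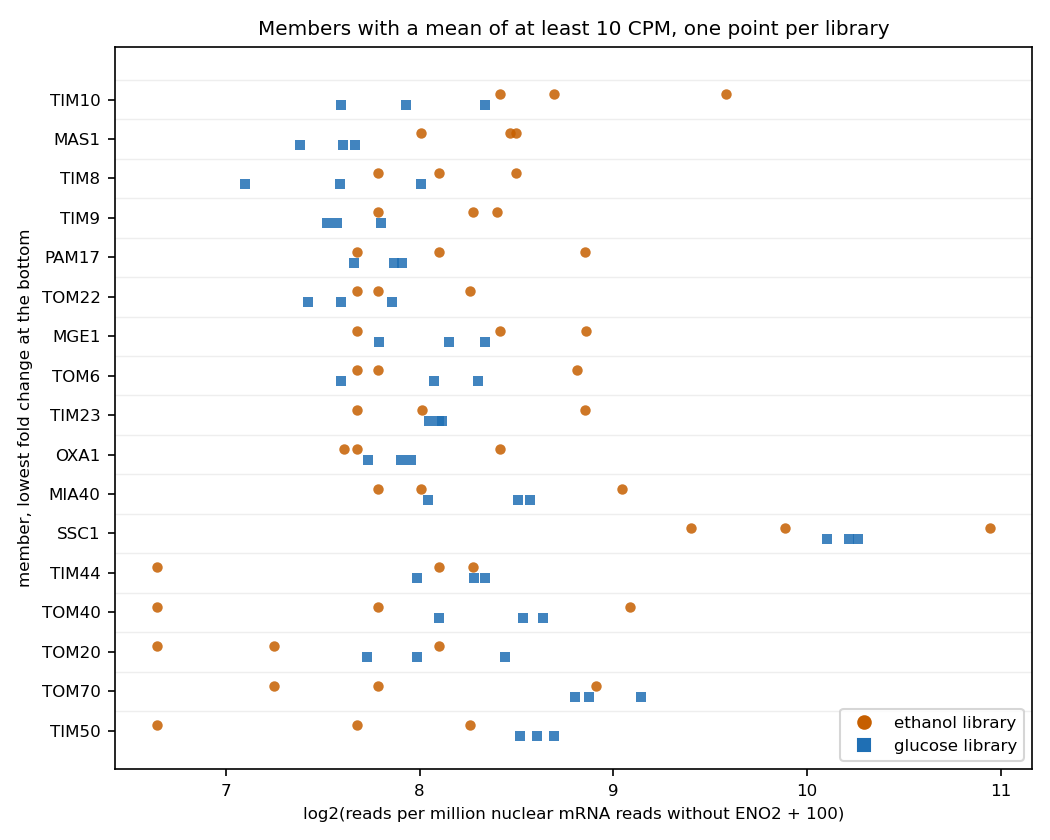
Level of each of the 17 members with a mean of at least 10 CPM, as log2(nRPM + 100) on the horizontal axis, with 1 point per library (circles ethanol, squares glucose). By measured level TIM10 and MAS1 lie fully higher and TIM50 fully lower in ethanol. The leftmost circles are ethanol libraries without a read, where up to 3 reads remain possible, among them ethanol replicate 1 for TIM50.

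Single genes were tested with limma on log2(nRPM + 100), fitted on the 1662 nuclear features that averaged 10 CPM or more. Of the 17 members tested, 0 passed a threshold of 0.05 after Benjamini-Hochberg adjustment, while 38.5% of all features tested did, 18.1% higher and 20.5% lower in ethanol. At an unadjusted p under 0.05 there were 4 of 17 members, against 50.8% of all features. Those 4 members were the only ones with adjusted p-values under 0.1. Fold changes on this scale understate the change of low genes. On the log2 scale, ethanol minus glucose, TIM10 stood at 0.94 ± 0.37 (SE, adjusted p = 0.0663 by limma) and MAS1 at 0.77 ± 0.30 (SE, adjusted p = 0.0628 by limma). TIM50 stood at -1.08 ± 0.40 (SE, adjusted p = 0.0593 by limma) and TOM70 at -0.96 ± 0.41 (SE, adjusted p = 0.0872 by limma). Without a filter all 31 members entered the fit and 0 passed, against 12.9% of 5470 features (5.61% higher, 7.33% lower). In simulated data of the same depth, 97.3% of features changed 8-fold and 12.9% of features changed 2-fold were called, so most 2-fold changes were missed there. Of the 1765 simulated features tested 159 were changed, and the spread between libraries was set, not taken from the data. The share called depends on both, so the simulation does not give the power of the real fit.

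The count of 0 depended on the libraries and on the model. Without ethanol replicate 1 TIM10 passed as higher, where 18.2% of all features did, and without ethanol replicate 2 MAS1 passed as higher, where 15.9% did. Without ethanol replicate 3 TOM20, TOM40, TOM70 and TIM50 passed as lower, 4 of 17 members where 32% of all features did. Leaving out a glucose library gave 0 members in each case, though it also brought the count of all features called from 640 to between 341 and 392. Weighting by read depth with voom, on reads recovered from CPM and not all whole, called TIM9, TIM10 and MAS1 as higher in ethanol. Their adjusted p-values by voom were 0.0264, 0.00886 and 0.0134. In that fit 21.7% of all features passed as higher, so 3 of 17 members lay near the background. With ENO2 kept in the total 12 members passed, all lower, while over all features 1203, or 72.4%, passed as lower and 94 as higher.

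The members' median log2 fold change was 0.09 over the 17 tested, 10 above and 7 below 0, and the median of all 1662 features was -0.19. That background depends on the minimum of 10 deposited CPM. Nuclear mRNA without ENO2 took 0.977% to 9.39% of these CPM in ethanol and 9.32% to 13.0% in glucose, so the minimum leans towards glucose levels. With a minimum of 100 nRPM the median of all features was -0.003. In that fit 369 of 2009 features passed as higher and 336 as lower. SSC1, the member with the most reads, had a log2 fold change of -0.12 ± 0.38 (SE) with a 95% interval from -0.97 to 0.73. That interval still holds changes of almost 2-fold in the lower direction. The groups did not overlap for 3 of the 17 members, TIM10 and MAS1 higher and TIM50 lower, while this held for 55.9% of all features tested (24.1% higher, 31.8% lower). Over all 31 members it held for 8, 5 higher and 3 lower, against 34.9% of the features with any read (13.1% higher, 21.8% lower).

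Among the members the fold change also went with length. The members tested run from 186 bases for TOM6 to 1968 for SSC1, and Spearman's rho between length and log2 fold change was -0.58 over the 17 members and -0.28 over all 1662 features. These correlations are across genes of the same libraries and describe them only. Of the 5 members with the lowest fold changes, 4 were longer than 1000 bases, TOM20 being the other, and TIM8, TIM9 and TIM10, all under 400 bases, were among the 4 highest. MAS1, with 1389 bases, was the exception among the higher genes. With a trend of level on length removed in each library, an adjustment added after seeing the data, TIM10 moved from 0.94 to -0.37 and MAS1 from 0.77 to 0.86 (limma adjusted p = 0.0441). In the same fit TOM6 had -1.65 (limma adjusted p = 0.0141) and TOM20 -1.37 (limma adjusted p = 0.0453). There 14.1% of all features passed as higher and 22.2% as lower, against 1 and 2 of 17 members.

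**Figure D3:**
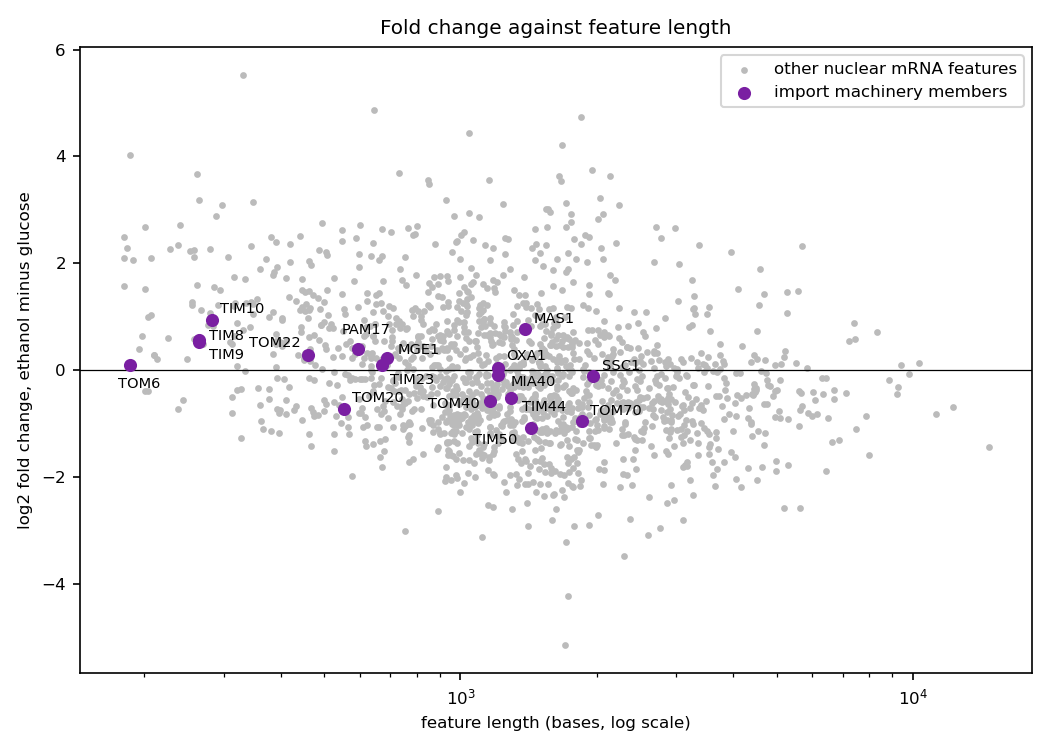
Log2 fold change of ethanol minus glucose (vertical axis) against feature length in bases on a log scale (horizontal axis) for 1662 nuclear features, with the 17 import machinery members in purple. Short members such as TIM10 sit above 0 and long members such as TIM50 and TOM70 below it, with MAS1 apart.

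Per length, TOM6 and TIM10 were among the 3 highest named members on both carbon sources. In glucose TOM6 had the highest level per length, with 857 ± 332 nRPM per kb (SD, n = 3), followed by SSC1 with 545 ± 33.2 and TIM10 with 544 ± 232, which did not differ beyond their spread. This order rests on the division by length and is not a ranking of mRNA abundance. Whether read numbers scale with feature length in this direct RNA sequencing was not tested. Without it the glucose means were 1073 nRPM for SSC1, 159 for TOM6 and 153 for TIM10. TIM9, TIM8 and TOM20 followed with 376 ± 79.4, 362 ± 227 and 310.2 ± 126 nRPM per kb. From TIM23 with 258 ± 9.38 down to MIA40 with 195 ± 51.7, each neighbour lay within the spread of the next, and MAS1 was the lowest with 63.6 ± 13.8. In ethanol TIM10 was the highest with 1444 ± 805 nRPM per kb and TIM50 the lowest with 72.4 ± 72.0, and only TOM6 and TIM10 had means above 1000.

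The make-up of the import pool, which does not depend on the library total, differed between the groups in part. The small TIMs made up 14.9%, 24.3% and 16.1% of the pool on ethanol, against 10.1%, 9.50% and 5.36% on glucose. The TIM23 complex made up 9.96%, 8.57% and 7.53% on ethanol, against 12.9%, 13.5% and 14.7% on glucose. The TOM complex made up 14.9%, 10% and 22.4% on ethanol, against 24.3%, 23.4% and 22.8% on glucose. The processing peptidase made up 5.40%, 5.71% and 4.68% on ethanol, against 3.39%, 4.47% and 4.38% on glucose. For each of these 4 shares the groups did not overlap, but for the TOM complex and the peptidase they nearly met. The peptidase shares of ethanol replicate 3 and glucose replicate 2 rested on 23 and 20 reads. In ethanol replicate 1 the small TIM, TIM23, TOM and peptidase shares rested on 6, 4, 6 and 2 of 40 reads. Feature length, which moved with the small TIM result, was not taken into account in these shares. The motor made up 33.8% ± 4.61 in ethanol and 34.6% ± 0.835 in glucose (SD, n = 3), and SSC1 alone made up 19.0% ± 4.38 and 21.9% ± 1.91. These shares sum to a fixed total and are therefore linked, and they were added as a description with no test.

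The ratio of the import pool to each of 3 other mitochondrial gene groups was lower in every ethanol library than in any glucose library. The nuclear genes for ATP synthase subunits, 14 features, had 14447 ± 4100 nRPM in ethanol and 4519 ± 138 in glucose (SD, n = 3). The ratio of the import pool to them was 0.388, 0.314 and 0.407 on ethanol, against 1.22, 1.04 and 1.00 on glucose. The groups did not overlap, with a log2 difference of -1.56 (exact permutation p = 0.1, the same after adjustment over 3 ratios). Relative to 75 mitochondrial ribosomal protein genes the ratio was 0.758, 0.502 and 0.602 on ethanol, against 0.991, 0.918 and 0.910 on glucose, a log2 difference of -0.62 (exact permutation p = 0.1). Relative to matrix chaperones and prohibitins that are not members, 8 features, it was 1.91, 1.08 and 1.64 on ethanol, against 2.12, 2.09 and 2.22 on glucose, a log2 difference of -0.51 (exact permutation p = 0.1). The levels of that group nearly met, with 2536 nRPM in ethanol replicate 1 and 2533 in glucose replicate 1, a gap far below the worth of 1 read. None of these tests could pass 0.05.

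With both pools limited to features of at least 600 bases, a choice made after seeing the data, the log2 differences were -1.47, -0.68 and -0.66 for ATP synthase, ribosomal proteins and chaperones. Leaving out any 1 library kept all 3 below 0, with the smallest difference, -0.27, for the chaperones. In the limma fit, 12 of 14 ATP synthase genes passed the threshold as higher in ethanol, as did 4 of 12 tested mitochondrial ribosomal protein genes and 0 of 6 tested chaperone genes, against 0 of 17 import members. Of all features tested 18.1% passed as higher.

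**Figure D4:**
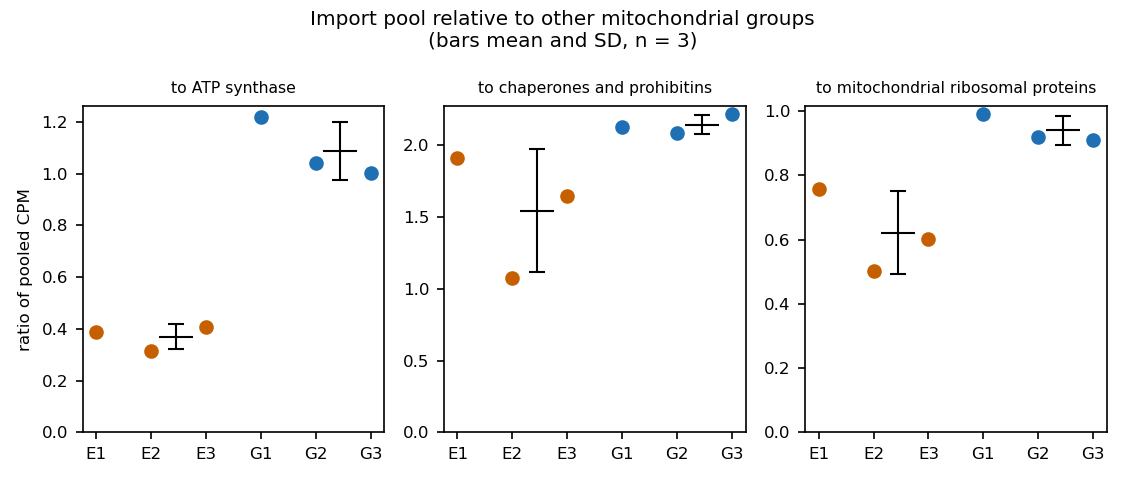
Ratio of the pooled CPM of the import machinery to that of 3 other mitochondrial gene groups (vertical axes, starting at 0) in each library, with ethanol replicates E1 to E3, glucose replicates G1 to G3 and bars for the mean and SD (n = 3). Every ethanol library lies below every glucose library in each panel, most widely against ATP synthase, where the means are 0.370 and 1.09.

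Of 26 other genes with a part in mitochondrial import or at its outer membrane gate, 24 had a feature and 10 had a mean of at least 10 CPM. In the limma fit 2 of these 10 passed as higher in ethanol and 0 as lower, against 18.1% and 20.5% of all features. Both were outer membrane proteins. OM14, a receptor for the cytosolic chaperone NAC that brings ribosomes to mitochondria, had 3864, 3144 and 1745 nRPM on ethanol, against 174, 92.4 and 112 on glucose. Its log2 fold change was 3.68 ± 0.34 (SE, adjusted p = 0.000109 by limma), and the groups lay far apart. OM45, an abundant outer membrane protein anchored beside it, had 483, 943 and 508 nRPM on ethanol, against 57.8, 10.3 and 83.9 on glucose. Its log2 fold change was 2.28 ± 0.34 (SE, adjusted p = 0.00123 by limma). On deposited CPM, tested as log2(CPM + 1) and so with another pseudocount, neither passed, and 0 of the 10 did. OM14 then had 37.8, 224 and 164 CPM on ethanol, against 22.5, 8.61 and 11.0 on glucose, a log2 fold change of 3.02 ± 1.22 (SE, adjusted p = 0.0770 by limma). OM45 had a log2 fold change of 2.32 ± 1.12 on that scale (SE, adjusted p = 0.134 by limma), and its groups overlapped.

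The NAC subunits themselves did not pass in this fit. EGD1 had 120.8, 419 and 317 nRPM on ethanol, against 545, 524 and 606 on glucose, without overlap (limma adjusted p = 0.0744). It passed as lower without ethanol replicate 2, with libraries centred on their median, with the length trend removed and with ENO2 in the total. EGD2 had means of 549 ± 179 and 547 ± 16.7 nRPM (SD, n = 3, limma adjusted p = 0.928). YME1, an inner membrane protease that faces the intermembrane space, had 0, 209.6 and 650.2 nRPM on ethanol, against 231, 349 and 326 on glucose (adjusted p = 0.542 by limma). Reads of TOM70 and TOM71, and of SSC1 and its close relative ECM10, may have been assigned to either gene of a pair, which leaves some doubt on their levels. No member feature overlapped another feature of the tables.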

How the data were processed

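RNA of isolated mitochondria from 3 ethanol and 3 glucose cultures was read by Nanopore direct RNA sequencing. The deposited values are CPM per feature, made by the authors, and each column sums to 1000000. Per the submitters' processing notes STAR 2.5.4a, SAMtools, featureCounts and edgeR were used, with no role given, and the chromosome column names a CEN.PK113-7D assembly, which all coordinates follow. Read filters were not given in the sources used here. Whole reads were recovered from the CPM steps within 0.01 read for 89.1% to 94.9% of the nonzero values of a library. That was taken as too few for a count test as the main test. The voom fit, run as an alternative, used the recovered reads with their fractions.

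CPM were rescaled to nuclear mRNA without ENO2 (nRPM). Exact permutation over samples, two-sided, served for the pools, adjusted over 9 pools, and single genes with limma 3.58.1 in R 4.3.3, with an intensity trend, on log2(nRPM + 100), for features averaging 10 CPM or more. Fits were tested on simulated data. Wilson intervals (95%) and floors of 3 reads cover counting error only. Members with a mean of at least 10 CPM are named singly, and of other pathway genes those that passed and the 3 next most abundant. The members and lists were chosen with earlier results of these data known. The replicates are separate cultures per the series' design text. Chi-square per degree of freedom between replicates ran from 1.18 to 4.93, so no library was a copy of another. Same-numbered libraries did not deviate together, with correlations of 0.003, -0.034 and 0.056 over all features tested. No sequences are shown, since the genome of the files' build was not used here.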

Additional observations from a re-analysis of the deposited data

How the results depend on the processing

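Results are ratios of ethanol to glucose for pools and log2 fold changes for genes. With ENO2 in the total the ratios were 0.340 for the import pool, 0.695 for the small TIMs, 0.344 for the motor, 0.553 for SAM, 0.362 for MIA, 0.415 for the peptidase, 0.282 for OXA1, 0.277 for TOM, 0.182 for TIM22 and 0.204 for TIM23. On deposited CPM they were 1.38 for the small TIMs, 1.06 for SAM, 0.380 for TIM23, 0.523 for TOM, 0.654 for the import pool, 0.640 for the motor, 0.721 for MIA, 0.818 for the peptidase and 0.431 for OXA1. The median of all features moved from -0.19 to -0.90 and -1.48 on these 2 scales, so single directions there hold only relative to that shift. Against features of its own length range the small TIM ratio was 0.734. Leaving out 1 library gave 0.868 to 1.29 for the import pool, 0.472 to 1.07 for TOM, 0.842 to 1.35 for the motor, 0.802 to 1.33 for MIA and 0.747 to 1.29 for OXA1.

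Members called numbered 1 (TIM50) with each library centred on its median, 3 with the length trend removed, 12 with ENO2 in the total, 3 with voom and 0 to 4 with 1 library left out, and 0 with the other pseudocounts, without a filter, with a minimum of 100 nRPM, without the intensity trend and on deposited CPM. A minimum of 50 CPM left 1 member, SSC1, and so does not bear on the others. With each library centred on its median, 706 of 1662 features were called, 274 higher and 432 lower in ethanol. With the length trend removed 604 were called, and with voom 700. All features called numbered 223 on deposited CPM, 206 of the 307 tested with a minimum of 50 CPM, 1297 with ENO2 in the total and 341 to 914 with 1 library left out. Other pathway genes called numbered 0 on deposited CPM, 1 with a minimum of 50 CPM and 9 with ENO2 in the total, 2 higher and 7 lower. In that last setting 72.4% of all features passed as lower. With the replicate number as a block, 3 members (TIM10, TIM50 and TOM70) and 672 features were called. The sign-flip test over same-numbered replicates cannot go below 0.25, and it gave 0.25 for the small TIM, TIM23, SAM and peptidase pools. The libraries share only a number.

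Signs of single genes turned as follows. Centred on the median, OXA1 was -0.058. On deposited CPM, TOM6 was -0.99, TOM22 -0.64, TIM8 -0.12, TIM9 -0.29, TIM23 -1.18, PAM17 -0.70, MGE1 -0.94 and OXA1 -1.20. With the length trend removed, TOM6 was -1.65, TOM22 -0.54, TIM8 -0.82, TIM9 -0.87, TIM10 -0.37, TIM23 -0.37, PAM17 -0.18, SSC1 0.037 and MGE1 -0.21. With ENO2 in the total, TOM6 was -0.58, TOM22 -0.39, TIM8 -0.28, TIM9 -0.32, TIM10 -0.19, TIM23 -0.69, PAM17 -0.44, MGE1 -0.59, MAS1 -0.18 and OXA1 -0.63. With voom, TIM23 was -0.018, SSC1 0.12, MIA40 0.42 and OXA1 -0.17. Leaving out 1 library gave -0.046 to 0.55 for MGE1, -0.48 to 0.15 for MIA40, -0.22 to 0.18 for OXA1, -0.55 to 0.22 for SSC1, -0.24 to 0.34 for TIM23, -1.21 to 0.014 for TOM40 and -0.26 to 0.31 for TOM6. Apart from the settings' own construction, the cause was not tested. The few nuclear mRNA reads of ethanol replicates 1 and 2 limit every single-gene value.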
